A study of Mus musculus with 12 samples.

Results

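Divergent head-to-head gene pairs are neighbouring genes on opposite DNA strands that start next to each other and are transcribed away from a shared stretch of DNA. They were taken from the gene models deposited for an RNA-seq study of the mouse nucleus accumbens (NAc), a reward region of the ventral striatum with dense dopamine innervation. A pair was a minus-strand coding locus to the left of a plus-strand coding locus, with their outermost 5′ ends less than 1000 bp apart and no overlap between the loci. A locus is a group of overlapping transcripts on 1 strand, and it was counted as coding where at least 1 of its transcripts carried a protein identifier. The rule gave 778 pairs, which hold 1556 of the 22206 coding loci (7.01%) and of the 35406 loci in all. No locus was in more than 1 pair.

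RNA had been sequenced from 12 pools of NAc tissue from adult C57BL/6 mice of 8 to 10 weeks, with 3 pools in each of 4 conditions and 3 to 5 animals in a pool. The repeated cocaine mice received 7 daily intraperitoneal injections of cocaine at 20 mg/kg, and their controls received 7 of saline. The acute cocaine mice received saline for 6 days and cocaine at 20 mg/kg for 1 day, and had a saline control of their own. All tissue was taken 24 h after the last injection. The models analysed here are attached to the series and not to a sample, and match Ensembl transcripts throughout. They carry positions and identifiers without read depth or any value per pool. No cocaine and saline values of the pairs were therefore compared, and what follows describes the genes and their promoters. Library preparation, as the methods describe it, had no step that marks the strand. Where both partners of a pair are transcribed next to each other, such reads show their strand only through splice junctions.

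In a divergent pair the DNA between the 5′ ends can act as a bidirectional promoter, from which RNA polymerase II initiates in both directions. Such promoters are known to be rich in CpG dinucleotides, which lie unmethylated in CpG islands, and to lack a TATA box more often than not. Many genes that every cell needs, including genes for DNA repair, mitochondria and chaperones, have long been known as partners in such pairs, and partners often have unrelated functions.

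The DNA between the partners is shown for 8 pairs with 30 bases of each partner beside it, as examples with 0 to 175 bases between partners, from mitochondrial, repair, collagen and histone genes. The sequences are those of the plus strand of mm9 (NCBIM37), 5′ to 3′, so that the left partner runs leftwards out of the sequence and the right partner rightwards. Capitals mark matches, on either strand, to the TATA box (TATAAA), the CCAAT box (CCAAT), the GC box (GGGCGG), and sites for the ETS family (CCGGAAGT), NRF1 (CGCATGCG), YY1 (AAGATGGCG), CREB (TGACGTCA) and E2F (GCGGGAAA), and to the palindrome CTCGCGAG. A GC box and an E2F site can overlap, and then run together in capitals. Each match is a description of the letters and not a mapped site.
Tubgcp2/Zfp511 (chr7:147222260-147222319): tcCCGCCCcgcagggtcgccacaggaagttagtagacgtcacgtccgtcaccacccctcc
Ndufs1/Eef1b2 (chr1:63223367-63223428): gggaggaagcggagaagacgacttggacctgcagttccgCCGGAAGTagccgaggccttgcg
Vmac/Ndufa11 (chr17:56857093-56857214): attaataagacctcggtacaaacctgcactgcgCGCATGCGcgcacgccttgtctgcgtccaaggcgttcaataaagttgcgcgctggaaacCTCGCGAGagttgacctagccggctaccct
Osgep/Apex1 (chr14:51544539-51544672): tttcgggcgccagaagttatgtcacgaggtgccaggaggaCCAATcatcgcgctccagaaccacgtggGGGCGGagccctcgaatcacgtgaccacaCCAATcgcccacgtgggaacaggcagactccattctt
Rad51c/Tex14 (chr11:87218427-87218596): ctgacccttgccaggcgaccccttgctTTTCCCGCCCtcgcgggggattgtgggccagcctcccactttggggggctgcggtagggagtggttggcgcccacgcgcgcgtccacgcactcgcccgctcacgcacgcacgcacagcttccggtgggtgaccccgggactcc
Mrps12/Sars2 (chr7:29526810-29527039): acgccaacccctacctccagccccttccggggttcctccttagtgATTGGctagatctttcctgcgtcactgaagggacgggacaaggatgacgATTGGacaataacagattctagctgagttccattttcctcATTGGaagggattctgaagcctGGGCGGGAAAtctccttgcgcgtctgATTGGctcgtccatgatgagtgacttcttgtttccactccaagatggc
Col4a4/Col4a3 (chr1:82583395-82583525): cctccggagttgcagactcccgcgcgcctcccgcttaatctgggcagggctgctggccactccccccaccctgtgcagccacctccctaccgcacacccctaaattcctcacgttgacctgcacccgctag
Hist1h2ae/Hist1h2bg (chr13:23663060-23663294): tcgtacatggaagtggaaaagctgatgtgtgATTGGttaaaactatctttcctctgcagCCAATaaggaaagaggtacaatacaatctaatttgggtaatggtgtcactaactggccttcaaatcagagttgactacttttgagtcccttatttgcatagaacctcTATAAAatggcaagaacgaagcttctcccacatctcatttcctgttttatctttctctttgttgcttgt

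Tubgcp2, a part of the γ-tubulin ring complex that nucleates microtubules, and the zinc finger gene Zfp511 began on adjacent bases, and the sequence around their starts held a GC box. Ndufs1, a subunit of respiratory complex I, and Eef1b2, a subunit of a translation elongation factor, had 2 bases between them and an ETS site within Eef1b2's start. The pair of Vmac and the complex I subunit Ndufa11 held an NRF1 site and the CTCGCGAG palindrome in 62 bases plus flanks. Osgep, a tRNA-modifying enzyme, and Apex1, the main endonuclease of base excision repair, shared 74 bases with 2 CCAAT boxes and 1 GC box between them. Rad51c, a recombination gene, and Tex14, a gene of germ cell bridges, had a GC box and an E2F site in overlap. Mrps12, a protein of the mitochondrial ribosome, and Sars2, the mitochondrial seryl-tRNA synthetase, had 4 CCAAT boxes in their 170 bases and flanks. The basement membrane collagens Col4a4 and Col4a3 had none of the 9 motifs. The histone pair Hist1h2ae/Hist1h2bg had a TATA box, 2 CCAAT boxes and 2 CpG dinucleotides in 235 bases, against 18 CpG in the 170 bases of Rad51c/Tex14. Histone pairs differed in this, since Hist1h2bf/Hist1h2ad, not shown, had CCAAT boxes but no TATA box, and 11 CpG in 244 bases.

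The partners lay close together. The median distance was 140 bases between the outermost 5′ ends, with quartiles of 73 and 270 and a range of 0 to 986. In steps of 50 bases the peak was at 50 to 99 bases, with 180 pairs (23.1%), and 104 pairs (13.4%) had fewer. Another 218 pairs (28.0%) had 100 to 199 bases between them, 110 (14.1%) had 200 to 299, 84 (10.8%) had 300 to 499 and 82 (10.5%) had 500 or more. These distances were used by the rule up to its limit, so they are given without a test. Beyond the limit, 118 head-to-head coding pairs were 1000 or more but less than 2000 bases apart. On the other side, 395 head-to-head pairs overlapped by less than 1000 bases at their 5′ ends, with a median overlap of 341 bases, and were not counted as members.

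**Figure D1:**
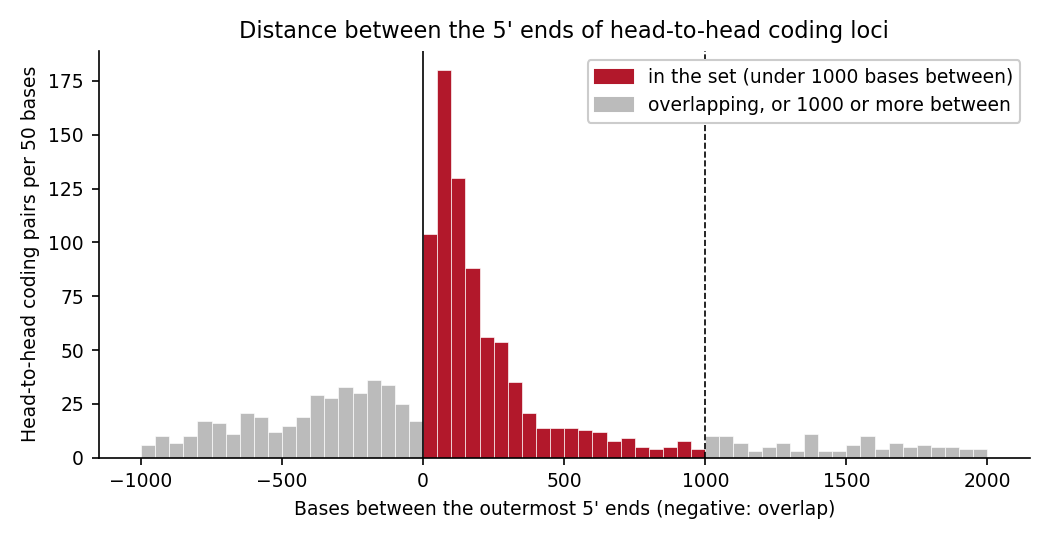
Number of head-to-head coding pairs (y axis, per 50 bases) by the bases between their outermost 5′ ends (x axis; negative values are overlaps), with the 778 pairs of the set in red and pairs outside the rule in grey. The peak of 180 pairs stands at 50 to 99 bases, and the dashed line marks the limit of 1000.

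Distances depended on which 5′ end was taken, since many loci have several. Measured between the 5′ ends that most transcripts of each locus share, the median was 173.5 bases, and 56 pairs then lay 1000 or more apart. Measured between the innermost 5′ ends, it was 9731 bases, and 528 pairs lay 1000 or more apart. A close pair is therefore a pair with at least 1 close pair of annotated starts, and the files do not show which start was used in the NAc.

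The 10 closest pairs had 0 to 8 bases between them. After Tubgcp2/Zfp511 (0) and Ndufs1/Eef1b2 (2) came Dhrs1/2610027L16Rik, Mrps21/C920021L13Rik and Slc7a6os/Prmt7, each at 2 bases. Mrps21 encodes a protein of the mitochondrial ribosome and Prmt7 an arginine methyltransferase. Bag5, a co-chaperone of Hsp70, lay 3 bases from 2810002N01Rik, and Cct5, a subunit of the cytosolic chaperonin, lay 4 bases from Fam173b. Wdr54/1700003E16Rik had 6 bases between them and Tmem205/Ccdc159 had 8. Eif2b1, a subunit of the exchange factor for translation initiation, and Gtf2h3, a subunit of the transcription and repair factor TFIIH, also had 8. In 4 of these 10 pairs 1 partner carried a clone name.

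Among the 5 widest pairs within the limit were Pdzd7/Sfxn3 and Btf3l4/Txndc12 at 986 bases each, Abhd14a/Abhd14b at 961 and Bai3/Gm9884 at 949. The 5 nearest beyond it were Serpina7/4930513O06Rik at 1006 bases, Atg14/Gm6616 at 1007, Sgsm2/Tsr1 at 1010, 9130011J15Rik/Tmem38a at 1014 and Ankrd17/Gm9958 at 1018. The limit therefore separates pairs that differ by 20 bases at its edge, and the sparse tail on both sides of it is seen in the plot of distances.

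In 10 pairs another locus reached into the space between the partners. In 1 of them, mt-Nd6/mt-Cytb of the mitochondrial genome (74 bases), the locus lay within it and was mt-Te, a transfer RNA gene. The mitochondrial genome is transcribed as long polycistronic RNAs, so this pair meets the rule by position but has no promoter of the nuclear kind. In the other 9 the space was spanned by a longer locus, as by Fgfr2 at Ikzf5/Acadsb (79 bases), Dnase2b at Spata1/Gng5 (80), Gm15680 at Cdh8/A330008L17Rik (170) and Gm16736 at Klhdc3/Mea1 (206).

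Pairs were found on every chromosome but Y, which had 17 coding loci. Chromosome 11 had the most, with 67. The share of coding loci that were in a pair was highest among the nuclear chromosomes on chromosome 8 (10.1%, 50 pairs) and chromosome 13 (9.91%, 43 pairs, with a histone cluster) and lowest on X (3.96%, 18 pairs).

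Orientation was compared among neighbouring coding loci that do not overlap. Below 1000 bases, 774 of 1846 neighbouring pairs (41.9%) were divergent, 552 (29.9%) were convergent, with their 3′ ends facing, and 520 (28.2%) were in tandem on 1 strand. Below 300 bases the divergent share was 60.8% (609 pairs). With no limit on the gap it was 23.2% (4675 of 20180), while 22.0% were convergent and 54.9% in tandem. Of all divergent neighbours 16.6% were less than 1000 bases apart, against 12.4% of convergent and 4.7% of tandem ones. Yet the median gap of divergent neighbours was the widest of the 3, at 21770 bases, against 11070 for convergent and 18440 for tandem neighbours. Divergent neighbours thus had both the largest share of close pairs and the widest median gap of the 3 kinds. These are counts of one genome annotation with no replicate, and no test was run.

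**Figure D2:**
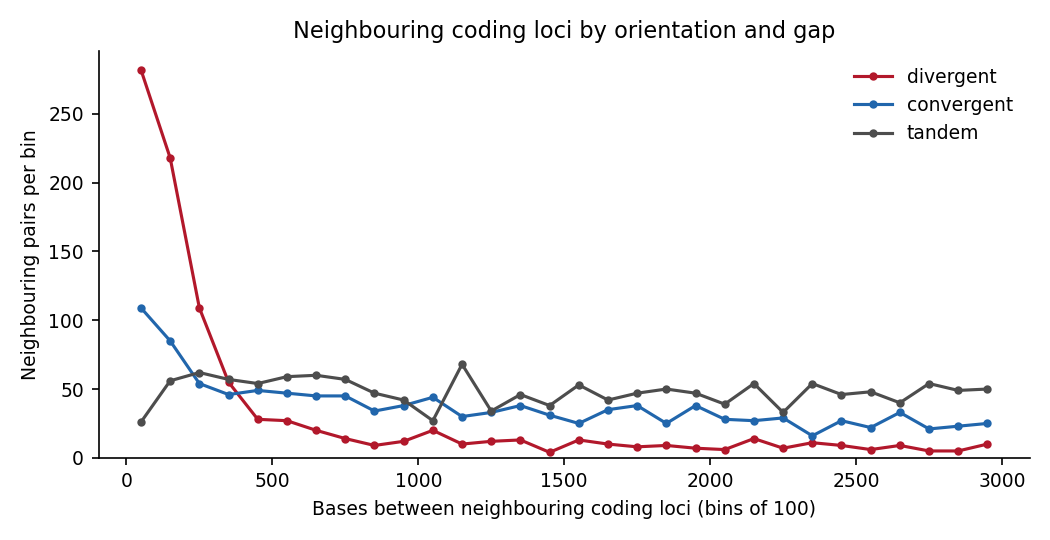
Number of neighbouring coding pairs (y axis) by the gap between the loci in bins of 100 bases (x axis), for divergent (red), convergent (blue) and tandem (grey) neighbours. Divergent pairs number 282 in the first bin against 109 convergent and 26 tandem ones, and fall below both other kinds from the bin at 400 bases on.

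Pair members were of moderate length and had several transcripts. Their loci spanned a median of 18460 bases (quartiles 7551 and 39130), against 14870 (quartiles 4098 and 42630) for the 20650 other coding loci. Without olfactory and vomeronasal receptor genes, which are short and stand in tandem arrays, the other loci had a median span of 16820 bases. Members had a median of 3 transcripts and 8 exons in the transcript with most exons, against 2 transcripts and 7 exons in the other loci without receptors. At least 2 groups of transcription start sites were annotated in 55.6% of members, against 45.6% of those other loci, and 5.85% of members, against 8.94%, had a single exon. Between partners, the span of 1 locus went weakly with that of the other (Pearson's r = 0.24 and Spearman's rho = 0.24 on log10 spans over 778 pairs), and the numbers of transcripts more weakly (r = 0.092, rho = 0.17). Partners share their place in the genome, so these are descriptions only.

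The promoters of the pairs were CpG-rich. In a window of 250 bases before to 50 bases after the outermost 5′ end, the ratio of observed to expected CpG had a median of 0.852 (quartiles 0.722 and 0.979) over the 1556 members, against 0.483 (quartiles 0.194 and 0.783) over the 20650 other coding loci and 0.527 over those without receptors. The ratio divides the number of CpG by the number that the C and G content alone would give, and vertebrate DNA outside CpG islands lies far below 1. The G + C content had a median of 62.7% in members and 54.3% in other loci. A ratio of at least 0.6, a usual mark of a CpG island, was found in 1342 members (86.2%), against 8597 other loci (41.6%). Windows of close partners share bases, so the members' windows are not independent of each other. In 635 pairs (81.6%) both windows reached 0.6, in 74 (9.51%) 1 of them did and in 69 (8.87%) neither. The space between partners itself had a median ratio of 0.841 in the 674 pairs with at least 50 bases there. Loci of overlapping head-to-head pairs, which were left out by the rule, had a median ratio of 0.767 and reached 0.6 in 72.3% of 790. In a window of 500 bases to either side, these loci had a median of 0.756 and reached 0.6 in 81.9%. Members had 0.775 and 84.4% in that window, so the difference depended on the window.

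CpG content fell with distance between partners. The median ratio was 0.9 and the share at 0.6 or more was 93.0% in pairs with 0 to 99 bases between them, 0.85 and 87.5% in pairs with 100 to 299, and 0.75 and 72.3% in pairs with 300 or more. Along the gene, the excess of members over other loci was largest on the upstream side. In the 50-base bin that begins 500 bases upstream the ratio over all members was 0.69, against 0.357 in the other loci without receptors, and in the bin that begins at the 5′ end it was 0.864 against 0.694. In the bin that begins 450 bases downstream it was 0.577 against 0.559. For a member, the upstream side is soon the transcribed part of its partner.

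**Figure D3:**
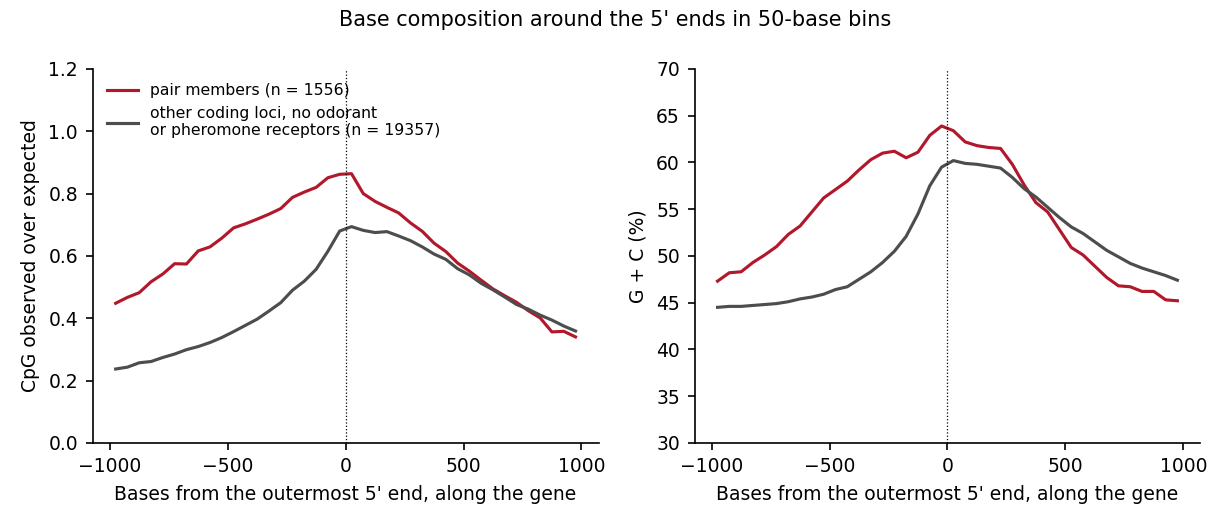
Ratio of observed to expected CpG (left) and G + C content (right) in 50-base bins from 1000 bases before to 1000 bases after the outermost 5′ end (x axis, along the gene), pooled over 1556 pair members (red) and 19357 other coding loci without olfactory and vomeronasal receptors (grey). The curves lie apart upstream, with 0.69 against 0.357 at 500 bases before the start, and meet about 450 bases downstream, at 0.577 against 0.559.

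Motifs of TATA-less promoters were more frequent in the pairs than in other coding loci, though each of those given next was in a minority of members. On either strand of the 300-base window, CCGGAAGT, bound by ETS factors such as GABP, was present in 13.7% of members, against 4.0% of other coding loci. CGCATGCG, the core of the site of NRF1, an activator of mitochondrial genes, was present in 5.66%, against 1.94%. AAGATGGCG, bound by YY1, was present in 5.01%, against 1.59%, the palindrome CTCGCGAG in 2.96%, against 1.03%, and the E2F site GCGGGAAA, known from cell cycle genes, in 3.21%, against 1.16%. TGACGTCA, the site of CREB, which acts after dopamine and cocaine in striatal neurons, was present in 4.37% of members, against 2.15%. All 6 of these motifs were thus at least 2 times as frequent in members.

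The common GC and CCAAT boxes differed by smaller ratios, although the GC box had the widest difference in percentage points, and the TATA box was rarer in members. GGGCGG, bound by SP1, was found in 68.0% of members and 40.9% of other loci. CCAAT, bound by NF-Y, was found in 670 of 1556 members (43.1%) and in 7755 of 20650 other loci. TATAAA was found in 4.56% of members, against 14.3% of other loci. Within the 100 bases upstream and on the gene's strand, where a TATA box works, it was found in 1.22%, against 4.8%. Since several of these motifs hold CpG, windows with a CpG ratio of at least 0.6 were also set side by side. Among these the ETS motif was in 15.1% of 1342 members and 7.81% of 8597 other loci, the NRF1 motif in 6.33% and 4.16%, the YY1 motif in 5.59% and 3.19%, the CREB site in 4.92% and 3.83%, the GC box in 72.4% and 72.7%, CCAAT in 43.1% and 36.3%, and TATAAA in 3.2% and 6.36%. The palindrome was in 3.43% and 2.28% and the E2F site in 3.43% and 2.22%. The GC box thus no longer differed by more than 1 percentage point, while the ETS motif remained nearly 2 times as frequent in members. CpG-rich windows of close partners still hold both starts, so this comparison does not set single promoters side by side.

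**Figure D4:**
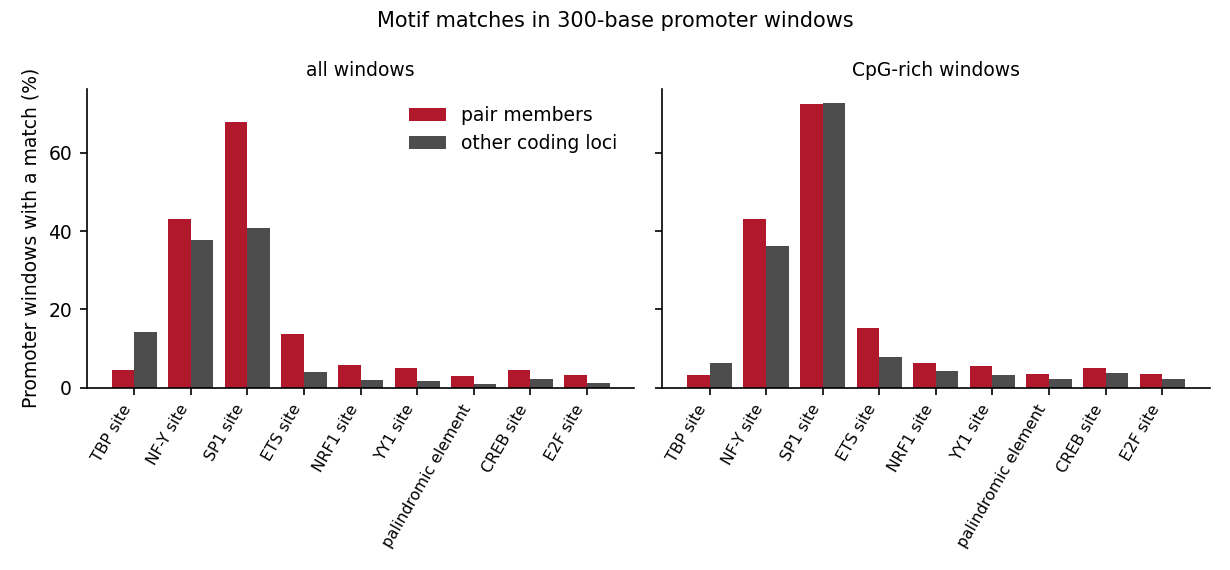
Share of 300-base promoter windows (y axis, %) with a match to each of 9 motifs (x axis, named by the factor that binds them, and "palindromic element" for the palindrome) in pair members (red) and other coding loci (grey), for all windows (left; 1556 and 20650) and for windows with a CpG ratio of at least 0.6 (right; 1342 and 8597). The SP1 site stands at 68.0% against 40.9% on the left and at 72.4% against 72.7% on the right, and the ETS site is higher in members on both sides.

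Motifs went with distance in different ways. The ETS motif was in 20.2% of windows of pairs with 0 to 99 bases between them, in 12.8% with 100 to 299 and in 4.22% with 300 or more. At 300 or more bases a window does not reach the partner's start. The share there was near the 4.0% of all other coding loci and below the 7.81% of other loci with a CpG ratio of at least 0.6. CCAAT was in 29.8%, 54.9% and 42.5% of windows in the same order, and TATAAA in 2.46%, 5.49% and 6.33%. Without the 13 pairs of 2 histone genes, CCAAT was in 29.8%, 53.3% and 42.1% and TATAAA in 2.46%, 3.47% and 5.79%. In a close pair 1 match can lie in both windows and is then counted in each.

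The functions of the pairs were described through 31 lists of gene symbols, set beside the share of all coding loci in a pair (7.01%). Among 14 lists of genes that most cells use, 231 of 1349 loci (17.1%) were in a pair, while among 7 lists of neuronal genes 11 of 464 (2.37%) were. Among loci with a CpG ratio of at least 0.6, of which 13.5% were in a pair (1342 of 9939), the shares were 20.8% (216 of 1039) and 3.0% (7 of 233). The difference between these gene classes was thus also present among CpG-rich promoters. The lists were chosen with earlier results of these data known, and no test was made of them.

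**Figure D5:**
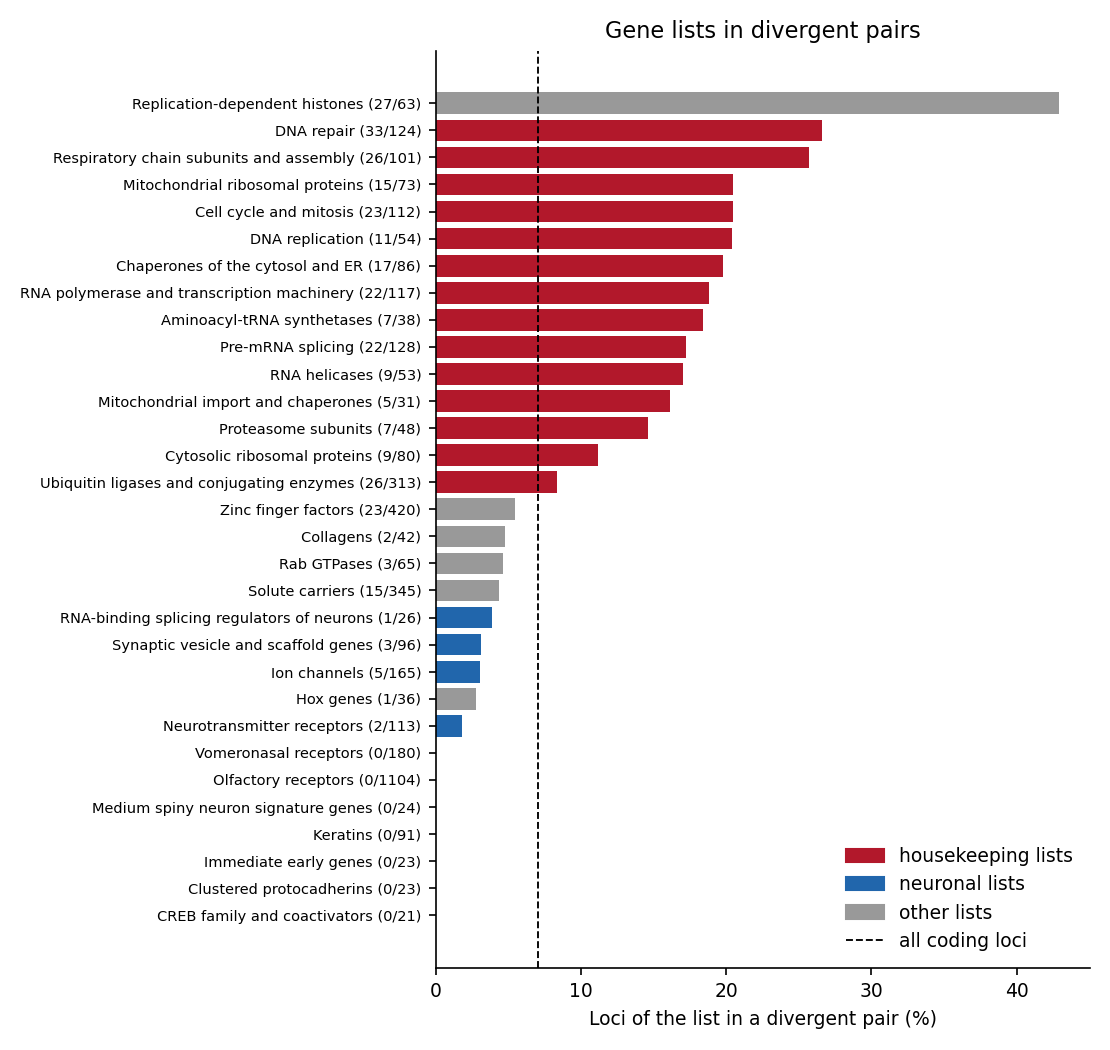
Share of the loci of each gene list that were in a divergent pair (x axis, %; counts of members and of coding loci in brackets), for housekeeping (red), neuronal (blue) and other lists (grey), with the share of all coding loci, 7.01%, as a dashed line. All 14 housekeeping lists lie to the right of the line and all 7 neuronal lists to the left, and histones lead with 42.9%.

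DNA repair genes were in a pair in 33 of 124 cases (26.6%), with a median of 133 bases to the partner. They came from most repair pathways. Of mismatch repair, Pms1 was paired with Ormdl1 (76 bases), a regulator of sphingolipid synthesis, and Pms2 with Aimp2 (116), a scaffold of tRNA synthetases. Of base excision repair, Apex1 was paired with Osgep (74), Mutyh, which removes adenine opposite oxidised guanine, with Toe1 (82), Nthl1 with the growth regulator Tsc2 (52), and Neil1 with Gm16493 (57). Of nucleotide excision repair, Ddb1 was paired with Dak (135), Ercc8 with the complex I assembly factor Ndufaf2 (105) and Xpc with AC161456.1 (72). Of recombination and crosslink repair, Brca1 was paired with the autophagy receptor Nbr1 (193), Palb2, a partner of Brca2, with the dynactin gene Dctn5 (94), Fancd2 with Tmem111 (43), Xrcc3 with Zfyve21 (296) and Rad54l with Pomgnt1 (149). Of the damage kinases, Atm was paired with Npat (306), an activator of histone genes, and Prkdc with the replicative helicase subunit Mcm4 (465). No pair had both loci in this list, which holds 124 of the 22206 coding loci, so such a pair would be rare in any case. The list also counts Poldip2, a polymerase-interacting protein, by its symbol.

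DNA replication (11 of 54, 20.4%) and the cell cycle (23 of 112, 20.5%) had similar shares. Orc3, of the origin recognition complex, lay 12 bases from Rars2, the mitochondrial arginyl-tRNA synthetase. The replicative polymerase Pole was paired with Pxmp2 (119 bases), Rpa1 with Smyd4 (108), and Dbf4, the activator of the Cdc7 kinase, with Slc25a40 (133). Subunits of the anaphase-promoting complex in pairs included Anapc2 with Ssna1 (39), Cdc27 with Myl4 (42), Anapc11 with Thoc4 (55), Anapc10 with Abce1 (79) and Cdc26, which the list does not hold, with the splicing gene Prpf4 (154). Cohesin genes were paired too, Smc1a with Ribc1 (132) on X and its meiotic relative Smc1b with Ribc2 (141) on chromosome 15, so that related genes stand on both sides of these 2 pairs. Cdk5, a kinase with its main known role in neurons and a place in this list by its name alone, was paired with the anion exchanger Slc4a2 (306).

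Mitochondrial genes followed. Of the respiratory chain, 26 of 101 loci (25.7%) were in a pair, with a median of 87.5 bases between partners and none over 362. Subunits of complex II in pairs included Sdha with Ccdc127 (28 bases) and Sdhd with Timm8b (51), a chaperone of the inner membrane import path. Complex III had Uqcrq with the growth factor Gdf9 (191), Uqcrh with Lrrc41 (197) and Uqcr10 with Zmat5 (335), and ATP synthase had Atp5c1 with Kin (82) and Atp5h with Kctd2 (163). Of mitochondrial ribosomal proteins 15 of 73 (20.5%) were in pairs, such as Mrps18c with the helicase Helq (26), Mrpl40 with the histone chaperone Hira (269) and Mrpl32 with the proteasome subunit Psma2 (216). Of mitochondrial import genes, 5 of 31 (16.1%) were, including Timm23 with Parg (50), the enzyme that removes poly(ADP-ribose).

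The remaining housekeeping lists ranged down to the background. Chaperones had 17 of 86 loci in pairs (19.8%), the transcription machinery 22 of 117 (18.8%), aminoacyl-tRNA synthetases 7 of 38 (18.4%), splicing 22 of 128 (17.2%), RNA helicases 9 of 53 (17.0%) and proteasome subunits 7 of 48 (14.6%). Examples from TFIIH, for which no share was computed, were Gtf2h3 with Eif2b1 (8 bases), Gtf2h1 with Hps5 (38) and Gtf2h5 with Serac1 (44). The abundant splicing proteins Hnrnpa2b1 and Hnrnpa1 were paired with the heterochromatin proteins Cbx3 (465) and Cbx5 (697). Cytosolic ribosomal proteins had 9 of 80 (11.2%) and ubiquitin enzymes 26 of 313 (8.31%). Among CpG-rich loci these shares were 10.8% and 12.7%, below the 13.5% of all CpG-rich loci, so not every class of housekeeping genes was above the background.

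Partners that were both in a housekeeping list made up 18 pairs (2.31%), while 195 (25.1%) had 1 such locus and 565 (72.6%) none. Besides those given above, they included Dnajc2/Psmc2 (31 bases), a ribosome-bound co-chaperone and a proteasome ATPase, Usp5/Cdca3 (62), Ndufa1/Rnf113a1 (81), Med22/Rpl7a (86), of Mediator and of the large ribosomal subunit, Gtf3c4/Ddx31 (98), Rps28/Ndufa7 (115), Ncapd2/Mrpl51 (205), of condensin and the mitochondrial ribosome, and Rad17/Taf9 (283), of the damage checkpoint and TFIID. These pairs were chosen for naming after their values were seen. Housekeeping lists held 231 of the 1556 members, so some pairs with both would be found whatever partners have in common. The count of 18 is therefore not read as a result about partners. Partners from the same list were found in 19 pairs, of which 13 were histone pairs, 3 were zinc finger pairs (Zfp944/Zfp758, Zfp942/Zfp943 and Zbtb25/Zbtb1), and the others were Hspa1a/Hspa1l, Fbxo44/Fbxo2 and Col4a4/Col4a3.

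Replication-dependent histones had the largest share of the 31 lists, with 27 of 63 loci in a pair (42.9%). In 12 of the 13 pairs with both loci in the list an H2A gene faced an H2B gene, and in Hist1h2bh/Hist1h3f (692 bases) an H2B gene faced an H3 gene. The H2A and H2B pairs had 167 bases (Hist1h2bq/Hist1h2ao and Hist1h2ap/Hist1h2br) to 305 bases (Hist1h2ba/Hist1h2aa) between them. All but Hist2h2ac/Hist2h2be (240 bases, chromosome 3) lay on chromosome 13. The remaining histone locus, Hist1h4d, was paired with AC034285.1 (135). Their promoters differed from those of the other pairs. The 26 windows of the 13 histone pairs had a median CpG ratio of 0.665 and 44.7% G + C, against 0.854 and 62.7% in the other 1530 windows. TATAAA was in 61.5% of them, against 3.59%, and CCAAT in 96.2%, against 42.2%, while the ETS motif was in 0 of 26, against 13.9%. Histone genes of a cluster are near-identical copies, so their windows are not independent. Their mRNAs are known to end without a poly(A) tail, and libraries were made from poly(A) RNA.

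Other gene families were rarer. Zinc finger factors had 23 of 420 loci in pairs (5.48%), solute carriers 15 of 345 (4.35%), Rab GTPases 3 of 65 (4.62%), collagens 2 of 42 (4.76%) and Hox genes 1 of 36 (2.78%). The symbols Slc7a6os and Rab3il1 are counted there although neither is known as a transporter or a GTPase. Olfactory receptors (0 of 1104), vomeronasal receptors (0 of 180), keratins (0 of 91) and clustered protocadherins (0 of 23), which stand in tandem arrays, had no locus in a pair.

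Genes of neuronal function were seldom in a pair. None of 24 genes that mark medium spiny neurons, the main cells of the NAc, was in one, nor any of 23 immediate early genes such as Fos and Egr1, although 21 of these had a CpG-rich window. Of 21 genes of the CREB family and its coactivators none was in a pair, and 2 were in overlapping head-to-head pairs. These lists are short, and at the 7.01% of all coding loci each would hold few members. Their zeros therefore say little on their own. Of 113 neurotransmitter receptors 2 (1.77%) were in pairs, among them the GABA-A receptor subunit Gabrg3 with Gm9962 (115 bases), whose name is that of a predicted gene.

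Ion channels had 5 of 165 loci in pairs (3.03%). Trpm8, the cold-sensing channel, was paired with Hjurp (27 bases), a chaperone of the centromeric histone, and Trpc2, a channel of vomeronasal neurons, with Rnf121 (41). The chloride transporter Clcn3 was paired with B230317F23Rik (136) and Trpc5 with Zcchc16 (726). Of 96 synaptic genes 3 (3.12%) were in pairs, Stxbp4 with the cytochrome oxidase assembly gene Cox11 (88), Stx8 with Wdr16 (541) and Nlgn2, the neuroligin of inhibitory synapses, with 1810027O10Rik (729). Of 26 RNA-binding splicing regulators, a list that holds the Rbfox family, 1 (3.85%) was in a pair, Elavl1 with the chemokine Ccl25 (109), and Elavl1 is known to be expressed in most cells. Between the 5′ ends that most transcripts share, Elavl1 and Ccl25 lay 24487 bases apart. Trpm8, Trpc2, Stxbp4, Stx8 and Elavl1 are thus counted as neuronal by their list, and their use in the NAc was not examined here.

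Partners seldom had similar proteins by the measure used, which was identical residues in percent of the longer protein's length. Proteins of unequal length score low by it, whether related or not. Over the 776 pairs with a protein for both loci, the median identity of the aligned proteins was 12.3%, against 13.2% for convergent and 13.7% for tandem neighbours less than 1000 bases apart. Identity of at least 30% was reached by 14 divergent pairs (1.8%), against 8 of 550 convergent (1.45%) and 32 of 518 tandem pairs (6.18%). The highest values were those of the Hsp70 genes Hspa1a/Hspa1l (88.0%, 578 bases apart), Gml/Hemt1 (79.0%, 255 bases), Zfp942/Zfp943 (67.5%, 87 bases), Safb2/Safb (63.1%, 396 bases), which bind scaffold-attached DNA, and 2010002M12Rik/Ifit1 (60.5%, 127 bases). Next were Zfp944/Zfp758 (60.5%, 52 bases), the sulfurtransferases Tst/Mpst (58.2%, 852 bases), the lipid transporters Abca17/Abca3 (53.8%, 920 bases), Col4a4/Col4a3 (49.2%, 71 bases) and the F-box genes Fbxo44/Fbxo2 (42.8%, 526 bases). Hspb2/Cryab, both small heat shock proteins, had 36.3% at 403 bases. Reads of near-identical partners such as Hspa1a and Hspa1l could be split between them by the authors' counting.

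A list of 27 pairs, 25 of them listed as head-to-head pairs of mammalian genomes and 2 set as controls, was looked up. The counts are not a recovery rate, since 5 of the 25 stood in another arrangement here. The rule found 9, namely Col4a4/Col4a3, Brca1/Nbr1, Atm/Npat, Mcm4/Prkdc, Mrps12/Sars2, Ddx49/Cope (28 bases), Rad51c/Tex14 (110), Gart/Son (553), of purine synthesis and splicing, and Pdcd10/Serpini1 (690), of which Serpini1 encodes neuroserpin, a protease inhibitor of neurons. Another 7 were head-to-head but overlapped at their annotated 5′ ends, such as the mitochondrial chaperonins Hspd1/Hspe1 (112 bases of overlap), Surf1/Surf2 (164), Ppat/Paics (272) and Hars/Hars2 (198). Col4a1/Col4a2 overlapped by 22 bases and Tap1/Psmb9 by 200, while Col4a5/Col4a6 (1308 bases) and Tbp/Psmb1 (1611 bases) lay beyond the limit. So of the 3 head-to-head pairs of type IV collagens, 1 was a member. Both controls, Syn1/Timp1 and Pcna/Cds2, were not found, 5 listed pairs stood in another arrangement in these models, and for 2 a symbol was not among the coding loci.

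A clone-derived name ending in Rik was carried by 152 members (9.77%), against 5.95% of other coding loci, and a predicted-gene name beginning with Gm by 43 (2.76%), against 7.67%. In 177 pairs 1 partner had such a name and in 9 both had. Since most members had neither kind of name, a member with such a name would mostly stand beside one without it in any case. Model names of other kinds, such as AC161456.1, were not counted. The pair Alg3/Ece2, of a glycosylation enzyme and an endothelin-converting enzyme, had 824 bases between the loci.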

How the data were processed

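The deposited file holds gene models that the authors attached to the series rather than to a sample, with exon coordinates on mm9 (NCBIM37) and transcript, locus, start-site group and protein identifiers. These are coordinates and identifiers, a unit of their own, and no count or expression value was among them. All 87740 transcripts carry an Ensembl transcript as their origin and are marked as equal to it, and which pools entered the file is not stated. TopHat, Cufflinks, Cuffdiff and CASAVA are the tools in the submitters' processing notes (versions not given in the sources used here). Libraries came from poly(A) RNA by random priming. A protein identifier is carried by 50689 transcripts.

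Transcripts were joined by locus identifier, and 44 members held more than 1 gene name. Distances count the bases between the outermost 5′ ends. Windows and sequences were read from the NCBIM37 genome, of the same build, in which all models lay within the chromosomes. Proteins were translated from GENCODE M1 transcripts and aligned globally with BLOSUM62 (gap opening 11, extension 1). No statistical test was run, since the models have no replicates. Python 3.11.15, numpy 2.4.6, pandas 2.3.3, Biopython 1.88 and matplotlib 3.10.9 were used, and the steps were tested on simulated data (9 of 9 tests passed).

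Named pairs were the 10 closest, the 5 widest and the 5 nearest beyond the limit, those on the list of known pairs, those with both loci in 1 list, those with a neuronal gene, the 10 of highest identity, and up to 5 with another locus between. Other pairs serve as examples of their list and were chosen after their values were seen. Some pairs that the rule names are not reported here. Members and lists were chosen with earlier results of these data known. Alternatives changed the distance limit, the unit and the 5′ end taken, the window, and the CpG and identity thresholds. Expression tables of the study were not used here.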

Additional observations from a re-analysis of the deposited data

How the results depend on the processing

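The number of pairs was 612, 696 and 896 with limits of 300, 500 and 2000 bases, 801 by the extent of coding transcripts only, 796 with gene names as the unit, 774 by biotype, and 777 without the mitochondrial pair. It was 1173 when overlapping 5′ ends were counted. In GENCODE M1, an alternative added after the data were seen, the rule gave 809, and 770 of the 778 pairs were among them. The share of coding loci in a pair was 5.51% at 300 bases, 6.27% at 500, 8.05% at 2000 and 10.6% with overlapping ends. The median distance was 9731 bases between innermost 5′ ends. The share of CpG-rich windows was 69.9% at a ratio of 0.75, 75.7% when 55% G + C was also asked and 84.4% in a window of 500 bases to either side, while for other loci the same settings gave 28.3%, 34.3% and 42.2%. TATAAA was in 1.22% of the 100 bases upstream. The divergent share of close neighbours was 53.6% below 500 bases and 32.1% below 2000. Protein identity of at least 20% was reached by 42 pairs, a level that does not by itself show relatedness, and identity of at least 50% by 8. The number of members in any list was 313, and 444 with overlapping ends, an alternative added later, under which 9 of 24 lists with a member moved by more than 1.5 times. Mitochondrial ribosomal proteins then had 27 members (37.0%, above DNA repair with 33.1%), DNA replication 18, import 8, tRNA synthetases 12, collagens 4, solute carriers 28, Rab 5, ion channels 8 and synaptic genes 6, beside a share of 10.6% of all coding loci. No paired analysis was possible because the models hold no values per pool. For the same reason pools could not be left out in turn.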
